A study of Mus musculus with 21 samples.

Results

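Pax5, Sit1, Bach2 and Tox are 4 genes with known roles in lymphocytes, taken by symbol from the 30961 gene models of the deposited expression table and followed through all 7 groups of a culture time course. The cells were the stromal vascular fraction from fat under the skin of the groin (inguinal fat), the mixture of stromal, vascular and immune cells left when fat tissue is digested and its adipocytes are removed. The tissue came from female C57BL/6J mice aged 8 to 12 weeks, and the lymph nodes had been taken out of it. RNA from primary cultures (P0) was sequenced on day 0 and then on 5 later days, which were 3, 7, 14, 21 and 28. The last group, P1, was made from day 28 cells that were passaged and kept for another 28 days.

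Each group has 3 libraries, 21 in all, and no genotype, drug or growth factor treatment separates the groups. The primary cultures shared a minimal growth medium with serum and plates without a coating. The labels do not say whether the replicates were separate animals, pools or dishes, so every p-value here covers no more than the spread among these libraries, and that spread may be technical. P1 differs from P0 day 28 both in passage and in added time in culture, and the effects of these cannot be told apart.

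Pax5 encodes the transcription factor that commits lymphoid progenitors to the B cell lineage and holds mature B cells in that identity. Sit1 encodes a transmembrane adaptor of lymphocytes that dampens antigen receptor signalling. Bach2 is a transcriptional repressor used by B cells and T cells, where it holds back plasma cell and effector programmes. Tox is an HMG-box factor required for CD4 T cell development in the thymus and for innate lymphoid cells, and it also sustains exhausted T cells. Lymphocytes reside in fat among its other immune cells, and Bach2 and Tox are also transcribed outside the lymphoid lineages.

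The values are levels on the authors' scale, on which 1 read counted for 0.742 to 1.67 depending on the library. It counted for 1.64, 1.67 and 1.22 in the day 0 libraries and for 0.742, 0.795 and 0.937 in P1. The same number of reads therefore gave a higher level on day 0 than in P1. A level under 30 was not resolved in the table. Such a library is described here as holding reads under the floor where at least 1 read was counted, and as holding no read otherwise. Reads recovered above the floor came to 2656668 to 3912326 per library on day 0 and 2690723 to 4098977 per library later. The floor lay at 17.97 to 24.55 reads on day 0 and at 24.6 to 40.5 reads later, so a low gene had to reach more reads in the cultured libraries to be resolved.

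For most of the table, symbols and values did not line up with the annotation, and only 430 of 16184 protein-coding gene models kept a symbol that could be trusted by position. Of the 430, 311 lie on chromosome 4 and 119 on chromosome 6, so shares and lists of genes with a trusted symbol do not sample the whole genome. All of Pax5, Sit1, Bach2 and Tox were among the 430. For each of the 4, the most probable shift between reads and annotation was -200 bases. The posterior probability of a shift within 200 bases was 91.3%. The effect of such a shift on the reads counted for these genes was not tested. The 4 genes lie on chromosome 4 in the order Tox, Bach2, Sit1, Pax5. No coordinates are given because the table's build, GRCm39, is not that of the annotation used. Their exons are not free of other transcripts. In the annotation, Bach2 shares 537 exonic bases with the antisense gene Bach2os, Tox shares 260 with Gm11802, Pax5 shares 125 with Gm12462 and 636 with 5730488B01Rik, and Sit1 shares none. The library kit, which amplifies cDNA with no strand mark in its description, leaves reads in those shared bases uncertain. Bach2os stood above the floor in 1 library, P0 day 28 replicate 3, at 33.4, and Gm11802, Gm12462 and 5730488B01Rik in none. Reads under the floor were still counted for each of them. Bach2os lacked reads in 6 of the 21 libraries, Gm12462 in 17, and Gm11802 and 5730488B01Rik in 20. The only library with reads of 5730488B01Rik was a day 0 library, and Gm12462 had reads on days 0, 3, 21 and 28. Whether reads of Pax5 came from the bases shared with these 2 was not tested.

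Pax5 was read on day 0 and in no later library. In the day 0 replicates 1, 2 and 3 its reads were under the floor, which means from 1 read to at most 18, 17 and 24 reads. By the reading of the floors, no read was present in any of the 18 libraries of days 3, 7, 14, 21 and 28 and of P1. A count of 0 still allows up to 3 reads per library, by counting error alone. The day 0 libraries stood apart as a whole: 7388 to 7407 gene models were above the floor in them, against 4459 to 5722 later, and 13073 to 13875 had no read, against 16347 to 20130 later. The part of this in the pattern of Pax5 was not tested. The groups do not overlap in whether reads were present, and no size can be put on the difference because both sides lie at or under the floor. In the exact two-sided permutation test on the libraries, each cultured group of 3 against the day 0 group of 3 gave p = 0.10, the smallest value that this design allows.

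The pattern of Pax5 was also counted over the table. It was defined from the values of Pax5 itself, so the shares describe the table and test nothing. Their base takes in every gene model with a level, such as the 18.8% with reads in all 21 libraries. Reads in all 3 day 0 libraries and in none of the 18 later ones were seen in 209 of 30465 gene models with a recovered level, or 0.686%. Without any value above the floor, as in Pax5, the number was 156, or 0.512%. Of the 429 gene models with a trusted symbol and a level, Pax5 was the 1 that showed it (0.233%). Pax5 neighbours on the chromosome did otherwise. Melk, a kinase of dividing cells, was above the floor in every library, and so was Zcchc7, a zinc finger protein of RNA decay.

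Sit1 was at the limit of detection throughout. Reads under the floor were present in day 0 replicate 1 and in day 3 replicate 3. The other 19 libraries held no read of Sit1. Day 0 and day 3 therefore had 1 positive library of 3 each, and the later groups had none. The exact permutation p was 1.00 for every cultured group against day 0. No other value is possible with 1 positive library of 3 against 1 or none, so the test cannot tell whether Sit1 changed. Reads in exactly 2 libraries with none above the floor were found in 3332 of 30465 gene models, 10.9%, and in 15 of the 429 with a trusted symbol, 3.5%. Its neighbours Cd72 and Ccdc107 were both measured well above the floor in several groups.

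**Figure D1:**
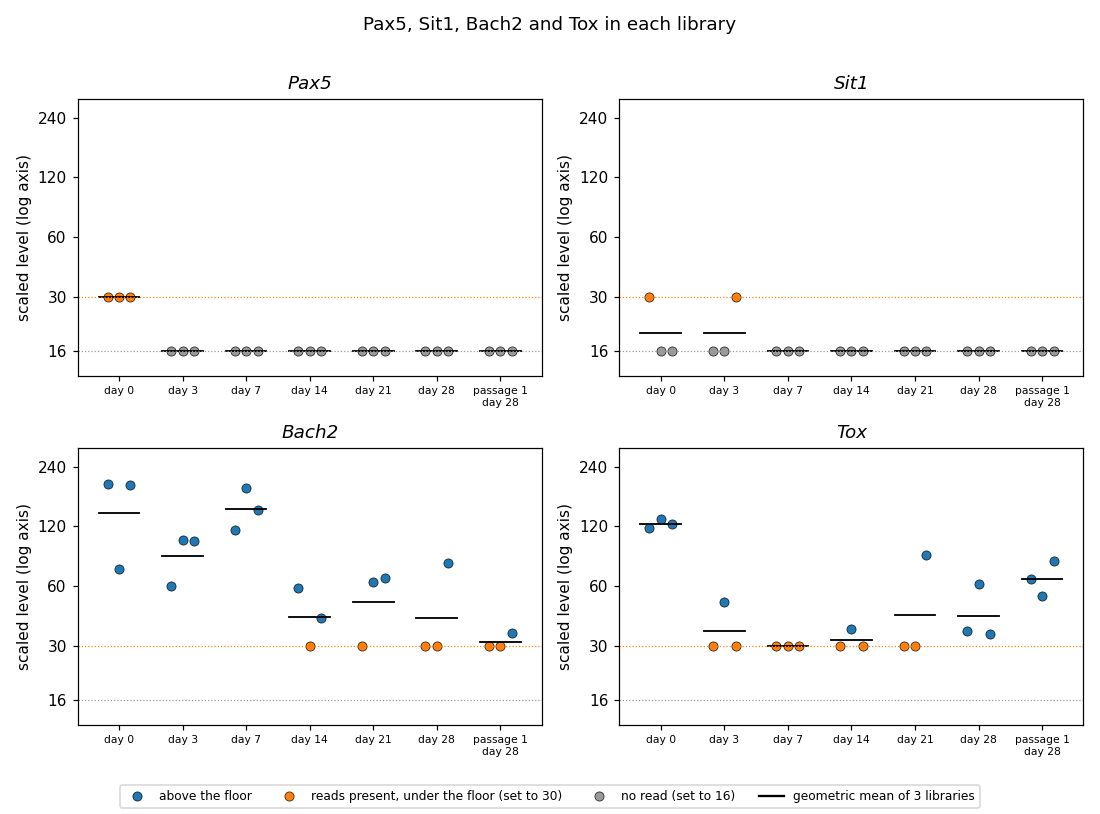
Scaled level (log axis) of Pax5, Sit1, Bach2 and Tox in each of the 21 libraries, by group in order of time with passage 1 last; bars are geometric means of 3 libraries. Blue points are above the floor, orange points hold reads under it (set to 30) and grey points hold no read (set to 16). Pax5 has reads in the 3 day 0 libraries and none later, Bach2 is lower from day 14, and Tox is below its day 0 libraries from day 3.

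Bach2 was lower than on day 0 from day 14 of culture on, and in the first week it did not pass the test. On day 0 its level was 195, 73.5 and 193 in replicates 1, 2 and 3. On day 3 it was 59.8, 102 and 101, and on day 7 it was 116, 188 and 145. Day 0 was the most uneven of these groups, with replicate 2 far under the others, and the ranges of days 3 and 7 both overlap it.

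From day 14 the levels of Bach2 were low and partly unresolved. Day 14 gave 58.9 and 41.3 in replicates 1 and 3, with reads under the floor in replicate 2. Day 21 gave 63.0 and 65.9 in replicates 2 and 3, with reads under the floor in replicate 1. Only replicate 3 was above the floor on day 28, at 78.7, and the same held in P1, at 34.7. Bach2 was thus above the floor in 15 of 21 libraries, and reads of it were counted in all 21. The libraries of day 14, day 21 and P1 all fell below the lowest day 0 library, as did 57.2%, 48.5% and 58.4% of all gene models tested in those comparisons. Day 28 replicate 3 stood just above the lowest day 0 library, and that library is also the 1 in which Bach2os was above the floor.

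In limma, fitted once to the 7 groups with Benjamini-Hochberg adjustment over the 7765 gene models tested, Bach2 was 3.36-fold lower on day 14 than on day 0 (log2 difference -1.75 ± 0.44 SE, adjusted p = 0.00213). The limma difference from day 0 was -1.49 ± 0.44 on day 21 (adjusted p = 0.00734), -1.76 ± 0.44 on day 28 (adjusted p = 0.00223) and -2.16 ± 0.44 in P1 (adjusted p = 0.000366). Libraries under the floor entered at 30, so a fall that went below the floor is understated. Their equal values can also make the SE and p-values too small, by an amount not measured. The early groups did not pass the test. Day 3 differed from day 0 by -0.72 ± 0.44 (limma, adjusted p = 0.182) and day 7 by 0.06 ± 0.44 (limma, adjusted p = 0.926), with a 95% interval for day 7 of -0.86 to 0.99. Both of these rest on day 0 replicate 2: without it day 3 was lower by the limma test (-1.19, adjusted p = 0.0326) and the day 7 difference turned to -0.40 (adjusted p = 0.466). It turned to -0.12 (adjusted p = 0.876) without day 7 replicate 2.

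The step in Bach2 between successive times came between day 7 and day 14. The level was 3.51-fold lower on day 14 than on day 7 (log2 difference -1.81 ± 0.44, limma adjusted p = 0.006), with all day 14 libraries below all day 7 libraries. Of all gene models tested, 24.3% were called in that comparison in either direction, and 30.4% had no overlap in the same direction. The difference kept its call under every alternative scaling, filter and left-out library tried, between -2.06 and -1.43. The other successive steps of Bach2 did not pass, either adjusted or at an unadjusted p under 0.05: 0.78 ± 0.44 for day 7 against day 3 (limma, adjusted p = 0.406), 0.26 ± 0.44 for day 21 against day 14 (limma, adjusted p = 0.851) and -0.27 ± 0.44 for day 28 against day 21 (limma, adjusted p = 1). P1 against P0 day 28 gave -0.39 ± 0.44 (limma, adjusted p = 0.646), with an interval of -1.32 to 0.53 that leaves room for a change either way.

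Tox took another course, with its fall already present on day 3. It was 118, 130 and 123 in the 3 libraries of day 0, a narrow range. By day 3 it was above the floor in replicate 2 alone, at 50.1. On day 7 all 3 libraries held reads under the floor. On day 14 replicate 2 alone was resolved, at 36.4, and on day 21 replicate 3 alone, at 86.5. On the authors' scale, every cultured library of Tox was below every day 0 library. The same held for 45.9% of all gene models tested on day 3, 46.1% on day 7, 57.2% on day 14, 48.5% on day 21, 48.3% on day 28 and 58.4% in P1.

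Later Tox was resolved again. On day 28 it was 35.6, 61.5 and 34.5, and in P1 it was 65.3, 53.3 and 80.6, so that all 6 of these libraries were above the floor. Their ranges overlap, and on the authors' scale the P1 libraries still lie below those of day 0. That gap depends on the scale, because 1 read counted for 1.22 to 1.67 on day 0 and for 0.742 to 0.937 in P1. Whether it holds in reads was not tested. Reads of Tox were counted in all 21 libraries, 12 of them above the floor. Reads in every library were counted for 65.5% of gene models with a trusted symbol, a set chosen with the levels, and for 18.8% of the whole table.

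Tox was at least 3.48-fold lower on day 3 than on day 0, with 2 of 3 day 3 libraries at the floor (log2 difference -1.80 ± 0.34, limma adjusted p = 0.000248). It was at least 4.13-fold lower on day 7, where all values were at the floor (limma, adjusted p = 6.42e-05). Libraries at the floor share 1 value, which can make the SE and p-values of Tox too small, by an amount not measured. The limma differences from day 0 were -1.95 ± 0.34 on day 14 (adjusted p = 7.87e-05), -1.54 ± 0.34 on day 21 (adjusted p = 0.00082) and -1.55 ± 0.34 on day 28 (adjusted p = 0.000746). P1 was 1.89-fold below day 0 (-0.92 ± 0.34, limma adjusted p = 0.0236). That last call was not stable: it was lost without day 0 replicate 2, day 0 replicate 3, P1 replicate 1 or P1 replicate 2, with adjusted p between 0.0505 and 0.0904, and after quantile normalization the difference was 0.27 (limma, adjusted p = 0.451).

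No successive step of Tox after day 3 passed the test, either adjusted or at an unadjusted p under 0.05. Day 7 against day 3 gave -0.25 ± 0.34 (limma, adjusted p = 0.844), day 14 against day 7 gave 0.09 ± 0.34 (limma, adjusted p = 0.945), and day 21 against day 14 gave 0.42 ± 0.34 (limma, adjusted p = 0.569). The day 21 mean rests on replicate 3, without which the last of these differences was -0.093 (limma, adjusted p = 1). P1 was 0.63 ± 0.34 above P0 day 28 (limma, adjusted p = 0.245, 95% interval -0.08 to 1.34). None of the tested members was called in day 7 against day 3, day 21 against day 14, day 28 against day 21 or P1 against P0 day 28, where the shares called in either direction were 7.11%, 6.30%, 0.103% and 14.7%. The difference of Tox between P1 and P0 day 28 reached adjusted p = 0.0497 in limma after quantile normalization.

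**Figure D2:**
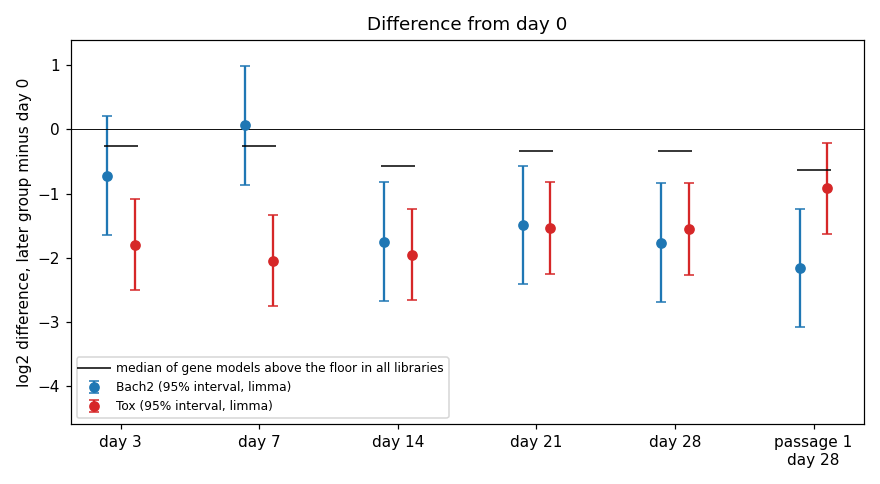
Difference in log2 level from day 0 for Bach2 and Tox in each later group (limma estimate with its 95% interval), as points and bars, left to right in order of time. Black lines are the median difference of the 3180 gene models that never touched the floor. Tox is lowest on day 7 and Bach2 in P1. For Bach2 the day 3 and day 7 intervals include 0.

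Over all 7 groups, both tested genes varied by the limma F test, with F = 8.42 for Bach2 (adjusted p = 0.00059) and F = 9.15 for Tox (adjusted p = 0.000381), as did 74.7% of the gene models tested. Ordered by geometric mean, Bach2 ran day 7 (147), day 0 (140), day 3 (85.2), day 21 (49.9), day 14 (41.8), day 28 (41.4) and P1 (31.5). Every pair of neighbours in that order overlaps. For Tox the order was day 0 (124), P1 (65.4), day 21 (42.7), day 28 (42.3), day 3 (35.6), day 14 (32.0) and day 7 (30.0). Day 0 and P1 do not overlap there on the authors' scale, and every other pair of neighbours does.

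The background of change was large. Tox was called lower than day 0 on day 3 and Bach2 was not, 1 of 2 tested members, beside 40.5% of all gene models tested. On day 7 it was again 1 of 2, beside 42.4%. Both were lower on day 14 (beside 55.9%), on day 21 (46.8%), on day 28 (47.1%) and in P1 (57.3%). Pax5 and Sit1 had too few values above the floor to be tested. With such shares, a lower level in culture does not by itself set Bach2 or Tox apart from other genes. A gene model above the floor on day 0 alone also entered the test, which can raise the shares called lower by an amount not measured. Fewer cells of a type and less RNA per cell cannot be told apart in bulk RNA.

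The background depended on the scaling. Among 3180 gene models that never touched the floor, the median log2 difference from day 0 was -0.26 on day 3, -0.25 on day 7, -0.57 on day 14, -0.34 on day 21, -0.34 on day 28 and -0.63 in P1. Relative to these shifts the falls of Bach2 and Tox are smaller than stated above. Quantile normalization carried these medians past 0, to 0.24 or higher in every group. After it 21.4% to 24.9% of gene models were called lower than day 0 and 25.0% to 30.0% higher, where the authors' scale gave 40.5% to 57.3% lower and 8.11% to 13.2% higher. Under that normalization Bach2 no longer passed on day 14 (-0.66, limma adjusted p = 0.206), day 21 (-0.73, adjusted p = 0.173) or day 28 (-0.98, adjusted p = 0.0684). With each library shifted to its median gene model, which left those medians within 0.08 of 0, Bach2 stayed lower on day 14 (-1.16, limma adjusted p = 0.0189), day 21 (-1.13, adjusted p = 0.022) and day 28 (-1.43, adjusted p = 0.00507). After quantile normalization it still passed in P1 (-1.10, limma adjusted p = 0.04). Tox still passed after quantile normalization on days 3, 7, 14 and 21, and was -0.66 on day 28 (limma, adjusted p = 0.0672).

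Genes that shared the course of Bach2 over the 21 libraries were sought among the other 327 tested gene models with a trusted symbol. All of these lie on chromosomes 4 and 6, so genes elsewhere could not be found, here or for Tox. The highest Pearson correlations of log2 level were with Smu1, a splicing factor (r = 0.82), Slc25a51, the mitochondrial NAD transporter (0.815), Mdn1, an ATPase of ribosome assembly (0.809), Topors, a ubiquitin and SUMO ligase (0.805), and Esrp1, an epithelial splicing regulator (0.804). Esrp1 differed from Bach2 within the first week. Its level was 2345, 2715 and 2442 on day 0 and 2180, 2023 and 2126 on day 3. By day 7 it was 986, 787 and 1048, by day 14 it was at most 88.0 in all libraries, and in P1 it had no read. Esrp1 was lower on day 7 than on day 0 (-1.42 ± 0.28, limma adjusted p = 0.000374), where Bach2 was not called. Smu1 and Slc25a51 moved far less, with Smu1 between 2194 and 2736 in P1, against 4169 to 4422 on day 0.

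The genes most like Tox were Samd9l, an interferon-induced gene (r = 0.851), Gem, a small GTPase (0.82), Pnrc1, a nuclear receptor coactivator (0.808), Ctnnal1, also called alpha-catulin (0.795), and Spaar, which encodes a small membrane polypeptide (0.79). Gem was 4395, 4865 and 4779 on day 0 and 86.6, 84.3 and 57.7 on day 3. Like Tox it was lower at the first cultured time, and its day 3 values were resolved in all 3 libraries, where Tox was resolved in 1. Spaar was above the floor in the 3 libraries of day 0 (205, 170 and 216) and the 3 of P1 (37.8, 59.6 and 33.7), and in no other. Bach2 and Tox themselves had r = 0.143. These correlations describe 21 libraries that share groups and scaling, and values at the floor enter them.

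**Figure D3:**
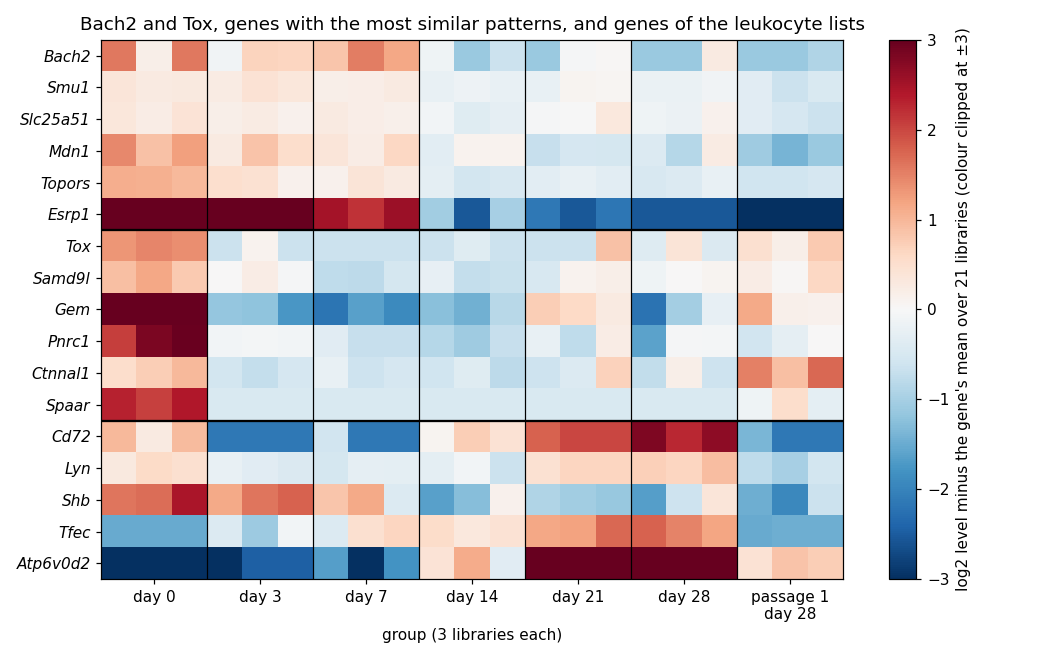
Colour map of log2 level minus the gene's mean over the 21 libraries (colours clipped at ±3), 1 column per library in order of time with passage 1 last, for Bach2 and Tox, each above the 5 genes most like it, and for 5 genes of the leukocyte lists with a trusted symbol. Tox and its most similar genes are red on day 0 and mostly pale or blue on days 3 to 14, Bach2 and its most similar genes are mostly pale or blue from day 14, and Cd72, Tfec and Atp6v0d2 are reddest on days 21 and 28.

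Few genes of the lymphocyte pathways could be set beside the 4 genes. Of 37 B cell genes listed, 27 were in the table and 3 had a trusted symbol, which were Pax5, Bach2 and Cd72. Of 42 T cell genes, 37 were in the table, and those with a trusted symbol were Sit1 and Tox. None of 20 natural killer and innate lymphoid genes and none of 24 pan-leukocyte genes had one. The other listed markers of B cells and T cells could therefore not be checked, and lymphocyte content was not measured beyond Pax5 and Sit1 themselves.

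Cd72, an inhibitory co-receptor of B cells that macrophages can also carry took a course of its own. Its level was 263, 162 and 259 on day 0 and under the floor in all 3 libraries of day 3. It was lower than day 0 on day 3 (-2.89 ± 0.35, limma adjusted p = 2.27e-06), on day 7 (-2.36 ± 0.35, adjusted p = 1.95e-05) and in P1 (-2.63 ± 0.35, adjusted p = 4.44e-06). It was 455, 539 and 534 on day 21 and 924, 636 and 852 on day 28, all above the day 0 range. Both times were higher than day 0, by 1.19 ± 0.35 on day 21 (limma, adjusted p = 0.00714) and 1.84 ± 0.35 on day 28 (limma, adjusted p = 0.000216). The 2 tested B cell genes, Cd72 and Bach2, thus split into 1 higher and 1 lower on days 21 and 28, with 60.3% of all gene models called in either direction on day 28. On day 21, 12.4% of all gene models tested were called higher than day 0 and 46.8% lower. On days 3 and 7 Cd72 alone was lower than day 0, beside 40.5% and 42.4% of all gene models tested. On day 14 Bach2 alone was lower, beside 55.9%, and in P1 both were lower than day 0, beside 57.3%. In P1 a single library of Cd72 was above the floor, at 51.9, and P1 was lower than P0 day 28 (-4.46 ± 0.35, limma adjusted p = 2.01e-07).

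In the list of antigen receptor signalling, 4 of 37 genes had a trusted symbol and 3 were tested. Besides Cd72, Shb, an SH2 adaptor downstream of receptor tyrosine kinases and the T cell receptor, was lower on day 28 than on day 0 (-2.55 ± 0.52, limma adjusted p = 0.000451). Lyn, a Src-family kinase of B cells and myeloid cells, differed by 0.31 ± 0.14 and did not pass (limma, adjusted p = 0.0687). The median log2 difference of the 3 from day 0 was -0.79 on day 3, -1.39 on day 7, -0.79 on day 14, 0.13 on day 21, 0.31 on day 28 and -2.63 in P1. Over all gene models tested these medians were -0.42, -0.44, -0.74, -0.54, -0.54 and -0.79. All 3 genes were lower than day 0 on day 7 and in P1, beside 42.4% and 57.3% of all gene models tested. Sit1, the fourth, was not testable.

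Markers of other cells moved over the same days. Of the myeloid list, 3 of 37 genes were tested. Tfec, a transcription factor of macrophages and osteoclasts, was 2.98 ± 0.27 higher on day 28 than on day 0 in log2, and Atp6v0d2, a proton pump subunit of the same cells, was 7.20 ± 0.42 higher (limma, adjusted p = 4.14e-08 and 1.45e-10). On day 0 all 3 libraries of Tfec held reads under the floor and all 3 of Atp6v0d2 held no read. Both sizes therefore depend on the floor values of 30 and 16. Both genes entered the test through cultured libraries alone, so no count of myeloid genes called higher is drawn. In P1 all 3 myeloid genes, Lyn included, were lower than in P0 day 28, beside 12.9% of all. The epithelial gene Esrp1 was under the floor in all 3 day 28 libraries, against 2345 to 2715 on day 0. The water channel gene Aqp3 and the adipocyte gene Lep were above the floor on day 0 and in no other group, and the adipocyte gene Aqp7 was so in all 3 day 0 libraries and 2 others, so their entry into the test rested on day 0 and no count is drawn from them. Of 5 stromal genes on day 28 against day 0, Svep1, Col15a1, Tpm2 and Mest were higher, beside 13.2% of all gene models tested, and Cav1 was lower, beside 47.1%. The part of these other cells in the levels of Bach2 and Tox was not tested.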

How the data were processed

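RNA was amplified to cDNA from 15 ng of total RNA, and libraries were built with a SMART-Seq kit, per the labels' protocols. The build was GRCm39, per the labels. The sources used here do not name the aligner, the counter or the scaling. In 1 table, the authors deposited log2 values for 30961 gene models in 21 columns, centred so that each gene model sums to 0. Their repeating lowest values were read as floors of 16 (no read) and 30 (reads, but a lower level), which returned the level of 1 read in each library, and of 14244 levels between the floor and 200, 100.00% then came out as whole reads within 0.1. Differences between groups equal those of the deposited values. The recovered reads lack everything under the floor, so no count test was run.

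A hidden Markov model compared levels with GENCODE M21 exons (GRCm38) at offsets up to 1600000 bases. A symbol was trusted where an offset of at most 1000 bases had a posterior of 0.9 or more. On simulated data, offsets of up to 1500 bases were also kept.

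Gene models above 30 in at least 3 libraries entered limma 3.58.1 under R 4.3.3 (trend, 1 fit over 7 groups, 11 comparisons, called at adjusted p under 0.05). The 4 members were named by rule, and the 5 genes most like each tested member by Pearson's r were named too. Members and gene lists were chosen with earlier results of these data known. Same-numbered replicates did not deviate together (correlations of -0.256 to 0.326), so the numbers were not taken as pairs.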

Additional observations from a re-analysis of the deposited data

How the results depend on the processing

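Of the 95 alternative values of Bach2 from other scalings, filters and fits, 91 kept direction and call, and so did 89 of 95 for Tox. After quantile normalization Bach2 lost its call against day 0 on day 14 (-0.66), day 21 (-0.73) and day 28 (-0.98), and Tox on day 28 (-0.66). Tox in P1 turned to 0.27 against day 0, and P1 against P0 day 28 gained a call (0.94). Day 21 against day 14 turned to -0.067 for Bach2, and day 28 against day 21 to 0.072 for Tox, neither called. Shifting each library to its median gene model left Tox in P1 at -0.26 against day 0, and testing without a filter at -0.92 (limma, adjusted p = 0.504 and 0.0579). With 1 library left out, 83 of 87 values held for Bach2 and 79 of 87 for Tox. The ranges of those that did not were -1.19 to -0.47 for Bach2 on day 3 and -0.40 to 0.30 on day 7 against day 0, -0.63 to 0.07 for Bach2 in P1 against P0 day 28, -1.07 to -0.77 for Tox in P1 against day 0, -0.093 to 0.67 for Tox on day 21 against day 14 and -0.29 to 0.49 for Tox on day 28 against day 21. Gene models called on day 21 against day 14 numbered 489, 167 with only those groups fitted, 309 without a filter, and 280 to 880 with 1 library left out. On day 28 against day 21 they numbered 8, 13 after quantile normalization or the median shift, 3 with only those groups fitted, and 8 to 17 with 1 library left out. P1 against P0 day 28 gave 1142, 595 with only those groups fitted, and 744 to 1070 with 1 library left out. The cause of these shifts was not tested. A replicate block changed no call of Bach2 or Tox, and gave 3958 gene models on day 3 against day 0 where the fit without it gave 3989. With no value above the floor, Pax5 and Sit1 were limited to the presence of reads, and values under the floor hold Bach2 and Tox at 30.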

Other observations

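Near Tox on the chromosome, Car8, a carbonic anhydrase-related protein, had a level of 4175, 3355 and 5537 in P1, against 572, 1364 and 221 in P0 day 28. Nsmaf, on the other side of Tox, was 845, 954 and 1326 in P1, against 717, 1432 and 1412 in P0 day 28. The day 21 library in which Tox was resolved, replicate 3, also stood above its group for Car8 (1227, beside 498 and 326), Ctnnal1 (1799, beside 714 and 839) and Pnrc1 (3647, beside 2644 and 1838). These genes were chosen after their values were seen.

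Melk, beside Pax5, was 905, 728 and 901 on day 3, against 50.9, 140 and 134 on day 0. Zcchc7, on the other side of Pax5, was 568, 532 and 641 on day 3, against 1910, 2184 and 2012 on day 0. Map3k7, a kinase gene beside Bach2, was uneven within groups, at 2618, 2445 and 737 on day 7, against 493, 947 and 2017 on day 0.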
